A study of Mus musculus with 11 samples.

Results

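A set of 6 transcription regulators of B cells was followed across 11 mouse RNA libraries: Pax5, Ebf1, Foxo1, Pou2af1 (which encodes OCA-B), Pou2f1 (Oct-1) and Pou2f2 (Oct-2). They were taken by symbol from a table of 23071 gene identifiers, all 6 were found, and all 6 passed the filter on low values in every comparison. Levels are in FPKM, a fragment count scaled to gene length and library size. All mice were C57BL/6. The 3 wild-type libraries and the 3 Ebf1+/- libraries (Ebf1 heterozygous, 1 functional Ebf1 copy) were progenitor B cells purified on columns from bone marrow. Each of these libraries pooled mice, 3, 7 and 6 of them for wild-type replicates 1 to 3 and 3, 6 and 7 for Ebf1 heterozygous replicates 1 to 3. The 5 leukemia libraries were lymph node cell suspensions, flash frozen, each from 1 mouse heterozygous for both genes (Pax5+/- x Ebf1+/-). The age of the mice is not given in the sources used here. Genotype, leukemic state, tissue, purification and pooling differed together between the leukemias and either other group, and their parts cannot be told apart. In bulk RNA, fewer cells of a type and less RNA per cell cannot be told apart either.

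B cell development is run by a small circuit of transcription factors. Ebf1 commits lymphoid progenitors to the B lineage and switches on Pax5, Pax5 activates B cell genes while shutting off those of other lineages, and Foxo1 acts with Ebf1 early in the circuit and turns on recombination genes. Oct-1 and Oct-2 bind the octamer motif of immunoglobulin and other B cell promoters, and OCA-B is the B lineage coactivator that joins them there. Pax5 and Ebf1 are known tumor suppressors in B cell leukemia.

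Library totals ran from 8506680 to 15313920 reads, and a member was covered by 342 to 17498 reads in a library. Of the 55 pairs of libraries, the most alike were wild-type replicate 2 and Ebf1 heterozygous replicate 2 (chi-square per gene 11.4, far above the sampling noise of about 1 per gene), and no pair was counted as 1 sample. Whether a label was swapped between those 2 libraries cannot be told from these values. A swap would alter the wild-type and the Ebf1 heterozygous means, and so the differences in all 3 comparisons, with those of leukemia against wild type. Ebf1 heterozygous replicates 1 and 3 stood apart. Replicate 3 held a summed 4400 FPKM of 8 megakaryocyte markers, against 146 and 286 in the other two of its group, 84.8 to 498 in wild type and 0.506 to 2.29 in leukemia. Its 14 B lineage identity genes stood at 31.3% to 63.7% of the mean of replicates 1 and 2. Replicate 1 held the highest sum of 13 granulocyte markers (10637 FPKM, against 2713 and 3991 in its group, 628 to 3393 in wild type and 3.86 to 8.69 in leukemia), and its long genes read low. Genes of 10000 bases or more had a median log2 deviation from the wild-type mean of -1.0 there, against -0.19 to 0.28 in the wild-type libraries. All 14 B lineage identity genes were measured above 0 in every group, with sums of 3982 to 6904 FPKM in wild-type cells, 2810 to 8128 in Ebf1 heterozygotes and 3708 to 5605 in leukemia.

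Of the 6 genes, 4 were lower in leukemia than in wild-type progenitors: Foxo1, Pou2af1, Pax5 and Ebf1. Foxo1 fell furthest, to 42.3% of its wild-type mean, followed by Pou2af1 at 49.4%, Pax5 at 53.5% and Ebf1 at 67.2%. The 2 octamer-binding factors did not pass the test, with Pou2f1 at 81.5% and Pou2f2 at 87.8% of wild type. These 4 of 6 calls stand against a background of 44.8% of 10968 genes called in either direction and 24.1% called lower. In Ebf1 heterozygous against wild-type cells none of the 6 passed, where 0 of all 11167 genes tested did (0%). The mean of each of the 6 there lay between 68.0% (Pou2af1) and 94.8% (Pou2f2) of wild type.

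Pax5 encodes the paired-domain factor that holds cells in the B lineage. It lies on chromosome 4, from 44524757 to 44710487 on the minus strand (GRCm38, GENCODE M21). The 250 bases before its RefSeq start (GRCm38.p6, chr4:44710695-44710944, minus strand) are printed because Pax5 is an upstream node whose RNA was called lower in leukemia than in wild type.
Pax5: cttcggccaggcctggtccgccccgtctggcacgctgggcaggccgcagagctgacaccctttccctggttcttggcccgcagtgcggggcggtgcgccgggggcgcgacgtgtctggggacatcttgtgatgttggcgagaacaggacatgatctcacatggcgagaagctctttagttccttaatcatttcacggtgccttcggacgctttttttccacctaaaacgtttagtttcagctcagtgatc
No capitals are set in it, since none of the motifs searched (the EBF palindrome TCCC and GGGA with any 2 bases between, the octamer ATGCAAAT, its part TGCAAAT and the forkhead motif GTAAACA, each on both strands) was found in this window. Its base composition is 58.8% G and C, with a ratio of observed to expected CpG of 0.88, against medians of 52.4% and 0.37 over 32851 RefSeq promoter windows of the same length.

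Pax5 stood at 312, 175 and 180 FPKM in the 3 wild-type libraries, at 254, 193 and 89.0 in the Ebf1 heterozygous libraries and at 128, 162, 145, 88.3 and 71.4 in leukemia replicates 1 to 5. Every leukemia library lay below every wild-type library, with leukemias 4 and 5 lowest of all groups, while wild-type replicate 1 stood well above the other two. The leukemia mean was 119 ± 38.3 FPKM (SD, n = 5), compared with 222 ± 77.9 (n = 3) for the wild-type libraries. On the log2(FPKM + 1) scale used for all differences, which understates changes of low genes, the difference was -0.91 (SE 0.30, 95% interval -1.58 to -0.24, limma adjusted p = 0.0338). The call was lost when wild-type replicate 1 was left out (-0.64, limma adjusted p = 0.138) or leukemia replicate 4 (-0.82, 0.0647), when no genes were filtered (0.0552) and when the 3 groups were fitted together (0.0704). The deposited Pax5 values imply a gene length of 1208 bases, where its RefSeq transcript has 8220, so the Pax5 level relative to other genes depends on that gene model. The exons of 5730488B01Rik, annotated on the opposite strand, overlap those of Pax5 in GENCODE, and whether reads were counted by strand is not given in the sources used here. That gene averaged 10.2 ± 0.995 FPKM in wild type and 31.6 ± 15.9 in leukemia, and its part in the Pax5 values was not tested.

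Ebf1 encodes the early B cell factor that acts upstream of Pax5 and opens chromatin at B lineage genes. It lies on chromosome 11, from 44617317 to 45008091 on the plus strand. The window before the first of its 2 RefSeq starts (chr11:44617850-44618099, plus strand) is shown because Ebf1 is the other targeted gene. By the GENCODE bounds given, this window lies within the gene, downstream of its GENCODE start.
Ebf1: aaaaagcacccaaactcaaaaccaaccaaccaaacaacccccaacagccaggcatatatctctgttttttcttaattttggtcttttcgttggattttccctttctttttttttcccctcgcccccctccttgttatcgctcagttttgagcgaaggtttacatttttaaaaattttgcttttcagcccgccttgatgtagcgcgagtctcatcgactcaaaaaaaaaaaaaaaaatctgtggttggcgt
It held none of the motifs searched either, and its composition, 40% G and C, lay below the median of all windows. The window of the second start had 52.0% G and C and also no match.

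Ebf1 stood at 112, 102 and 83.4 FPKM in wild-type cells, at 83.6, 86.5 and 43.4 in Ebf1 heterozygotes and at 54.3, 59.1, 72.7, 81.4 and 65.6 in leukemia. The leukemias all lay below the wild-type libraries, although leukemia 4 came close to wild-type replicate 3. Ebf1 heterozygous replicates 1 and 2 lay near the lowest wild-type library, and replicate 3 far below. The leukemia mean of 66.6 ± 10.8 FPKM (SD, n = 5) compared with 99.1 ± 14.3 in wild type (n = 3), a difference of -0.57 (SE 0.15, 95% interval -0.91 to -0.23, limma adjusted p = 0.0132). The call was lost when wild-type replicate 1 (-0.48, limma adjusted p = 0.0553) or 2 (-0.54, 0.051) was left out and when the 3 groups were fitted together (0.0631). FPKM values are summed over both copies of a gene, so they do not show what the targeted copy made.

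Foxo1 encodes a forkhead factor that is held in the cytoplasm when Akt phosphorylates it, and in B cell progenitors it activates the recombination genes and the interleukin-7 receptor gene. It lies on chromosome 3, from 52268336 to 52353221 on the plus strand. The window before its RefSeq start (chr3:52268087-52268336, plus strand) is shown because Foxo1 had the largest difference of the 6 genes between leukemia and wild type and its window matched the EBF palindrome, in capitals.
Foxo1: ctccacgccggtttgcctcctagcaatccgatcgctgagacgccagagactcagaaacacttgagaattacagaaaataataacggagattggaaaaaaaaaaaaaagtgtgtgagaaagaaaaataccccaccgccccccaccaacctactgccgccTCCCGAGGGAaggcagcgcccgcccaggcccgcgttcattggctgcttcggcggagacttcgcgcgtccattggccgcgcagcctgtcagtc
The match begins at position -92 from the start, and 0.779% of all promoter windows hold such a palindrome. The match is a description of the letters, not a site or a cause.

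Foxo1 stood at 72.3, 58.3 and 53.6 FPKM in wild-type cells, at 44.0, 58.0 and 28.3 in Ebf1 heterozygotes and at 13, 21.5, 26.3, 26.9 and 42.2 in leukemia. The leukemias all lay below wild type but spread widely, with leukemia 1 lowest and leukemia 5 within the range of the Ebf1 heterozygous libraries. The leukemia mean was 26.0 ± 10.6 FPKM (SD, n = 5) against 61.4 ± 9.72 (n = 3), a difference of -1.29 (SE 0.30, 95% interval -1.98 to -0.61, limma adjusted p = 0.00809). The call held under each of the 16 alternatives run, with adjusted p from 0.00195 to 0.0370. In its place among genes of at least 1 FPKM, Foxo1 went from the top 12% in wild type to the top 18% in Ebf1 heterozygous cells and the top 30.5% in leukemia.

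Pou2af1 encodes OCA-B, the B lineage coactivator that holds Oct-1 or Oct-2 on the octamer. It lies on chromosome 9, from 51213708 to 51240080 on the plus strand. Its window (chr9:51213440-51213689, plus strand) is shown because Pou2af1 was the most abundant of the 6 genes and its window held a partial octamer, in capitals.
Pou2af1: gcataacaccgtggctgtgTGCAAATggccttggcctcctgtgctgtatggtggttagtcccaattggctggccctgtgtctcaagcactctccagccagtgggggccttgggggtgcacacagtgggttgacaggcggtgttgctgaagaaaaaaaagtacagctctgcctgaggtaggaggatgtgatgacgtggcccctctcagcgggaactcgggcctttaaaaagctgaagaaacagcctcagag
The 7 letters TGCAAAT begin at position -231 from the start and occur in 3.56% of all windows on either strand. They are part of the full octamer ATGCAAAT, which 1.6% of windows hold and this one does not, and the shorter motif was added after the sequence was seen. The forkhead motif, held by 3.17% of windows, was in none of the 9 windows of the 6 genes. Pou2f2 (64.8% G and C) and the 3 starts of Pou2f1 (74.4%, 26.8% and 40%) had no match to any motif.

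Pou2af1 stood at 615, 508 and 382 FPKM in wild-type cells, at 423, 416 and 184 in Ebf1 heterozygotes and at 195, 230, 280, 220 and 315 in leukemia. All leukemias lay below all wild-type libraries, and Ebf1 heterozygous replicate 3 lay below every leukemia. The leukemia mean of 248 ± 48.6 FPKM (SD, n = 5) stood against 502 ± 117 (n = 3), a difference of -1.01 (SE 0.19, 95% interval -1.44 to -0.57, limma adjusted p = 0.0031), and it passed in each of the 16 alternatives (adjusted p 0.000742 to 0.0238). Even so, Pou2af1 remained among the top 2.34% of genes in leukemia, from the top 0.951% in wild type.

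Pou2f1 encodes Oct-1, the octamer factor found in nearly all cells. It lies on chromosome 1, from 165865154 to 166002678 on the minus strand. Its levels were 10, 11 and 13.6 FPKM in wild-type cells, 4.85, 12.8 and 8.89 in Ebf1 heterozygotes and 8.85, 9.69, 9.81, 9.36 and 9.42 in leukemia. The leukemias were closely grouped (9.42 ± 0.371 FPKM, SD, n = 5), all just below the lowest wild-type library, and Ebf1 heterozygous replicate 1 was the lowest of all. The difference from wild type (11.6 ± 1.87, n = 3) was -0.26 (SE 0.11, limma adjusted p = 0.086) and passed without wild-type replicate 1 (-0.35, adjusted p = 0.0461). In all, 5 of the 6 genes had leukemia and wild-type values that did not overlap, against 46.3% of all genes, or 25.1% with leukemia lower. The Pou2f1 length in the deposited values, 13123 bases, is the longest of the 6, and long genes read low in the library where Pou2f1 was lowest. Exons of Cd247 on the opposite strand overlap it, and Cd247 averaged 10.9 ± 1.66 FPKM in wild type and 9.26 ± 1.89 in leukemia.

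Pou2f2 encodes Oct-2, the octamer factor enriched in B cells. It lies on chromosome 7, from 25087344 to 25179726 on the minus strand. Its levels were 15.0, 12.4 and 11.3 FPKM in wild-type cells, 17.5, 11.3 and 7.91 in Ebf1 heterozygotes and 15.4, 11.7, 9.45, 7.81 and 12.3 in leukemia. The 3 groups overlapped throughout, and the means were 12.9 ± 1.89 (SD, n = 3), 12.2 ± 4.88 (n = 3) and 11.3 ± 2.90 FPKM (n = 5). The leukemia difference was -0.20 (95% interval -0.64 to 0.24, limma adjusted p = 0.437), which leaves room for a change of either sign.

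**Figure D1:**
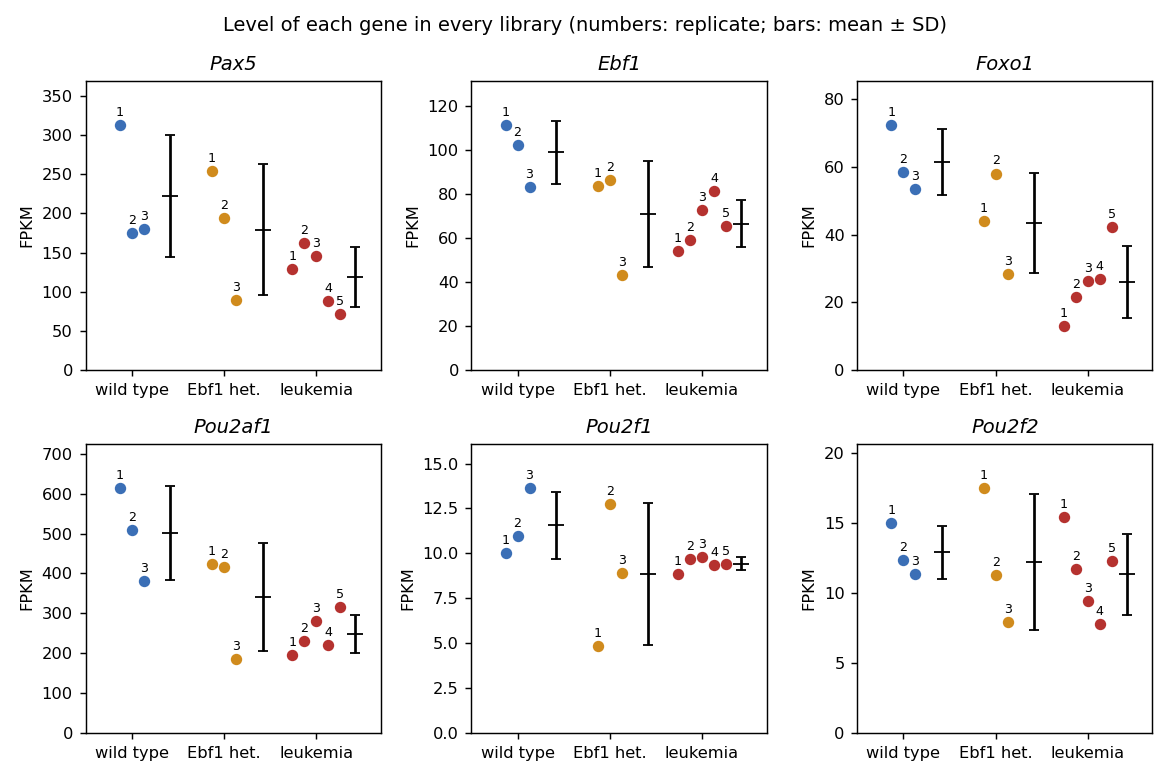
Level of each of the 6 genes in FPKM (vertical axis, its own scale in each panel) in the 3 wild-type, 3 Ebf1 heterozygous and 5 leukemia libraries; each numbered point is 1 library and the black bars are the group mean ± SD. In Foxo1, Pou2af1, Pax5, Ebf1 and Pou2f1 every leukemia point lies below every wild-type point, and in Pou2f2 the groups overlap.

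Exact two-sided permutation tests over libraries of the mean log2 value gave p = 0.0179 for Foxo1, Pou2af1 and Pou2f1, the smallest that 5 against 3 libraries allow, p = 0.0357 for Pax5 and Ebf1, and p = 0.464 for Pou2f2. Wild type and leukemia also differed in marker RNA of other cell types: all 13 granulocyte markers tested fell in leukemia, and so did all 8 megakaryocyte markers. B lineage identity genes did not move as 1 group. Of 14 tested, 4 fell and 2 rose (median log2 difference -0.76, against -0.04 for all genes), where 24.1% of all genes were called lower and 20.7% higher. Without wild-type replicate 1 or 2, the count that fell was 2. The part of cell makeup in the differences of the 6 genes was not tested.

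With the same test, limma called 0 of 11167 genes in Ebf1 heterozygous against wild-type cells (0%), with 863 at an unadjusted p under 0.05 (7.73%) and 0 called by voom on recovered reads. The 6 genes differed by -0.39 (Pax5), -0.53 (Ebf1), -0.54 (Foxo1), -0.62 (Pou2af1), -0.43 (Pou2f1) and -0.13 (Pou2f2), with adjusted p of 0.81, 0.717, 0.702, 0.725, 0.764 and 0.904. None of the 6 separated the groups, against 15.6% of all genes. The interval for Ebf1 ran from -1.20 to 0.15, which includes both -1.0 and 0. With the replicate numbers read as pairs, Ebf1, Foxo1 and Pou2af1 were each lower in the heterozygote in 3 of 3 pairs. The share of all genes with that pattern is not given here. The fit with that block gave Ebf1 the same difference with an SE of 0.17 in place of 0.29 (limma adjusted p = 0.225), Foxo1 an SE of 0.19 (0.268) and Pou2af1 an SE of 0.19 (0.219), and called none of the 6. The pairing is in no label and was chosen because these same libraries correlated, so a smaller SE under it is no separate support. An exact permutation test with 3 against 3 libraries cannot go below p = 0.1. Without Ebf1 heterozygous replicate 3, the library with high megakaryocyte markers, the differences shrank to -0.21 for Ebf1, -0.26 for Foxo1 and -0.23 for Pou2af1, and Pax5 was at 0.05. In that replicate Pax5 stood at 39.8%, Pou2af1 at 44.0%, Ebf1 at 51.0%, Pou2f2 at 54.9% and Foxo1 at 55.5% of the mean of replicates 1 and 2. Pou2f1 stood there at 8.89 FPKM, between replicate 1 (4.85) and replicate 2 (12.8).

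Leukemia against Ebf1 heterozygous cells gave 2409 called genes of 11161 (21.6%), 1039 higher (9.31%) and 1370 lower (12.3%), and 1538 higher and 1139 lower with quantile scaling. None of the 6 genes was among them, and none separated the groups, against 29.1% of all genes. Their differences were -0.52 (Pax5), -0.04 (Ebf1), -0.76 (Foxo1), -0.38 (Pou2af1), 0.17 (Pou2f1) and -0.07 (Pou2f2), with limma adjusted p from 0.149 (Foxo1) to 0.911 (Ebf1). The Foxo1 interval, -1.53 to 0.02, came nearest to excluding 0. Without Ebf1 heterozygous replicate 3, Pou2af1 was called (-0.78, adjusted p = 0.0327), while Pax5 (-0.96, 0.0791) and Foxo1 (-1.03, 0.099) were not. The comparisons share libraries, so their values stand side by side and are not independent. Alignment tools listed for the Ebf1 heterozygous samples differed from those of both other groups.

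**Figure D2:**
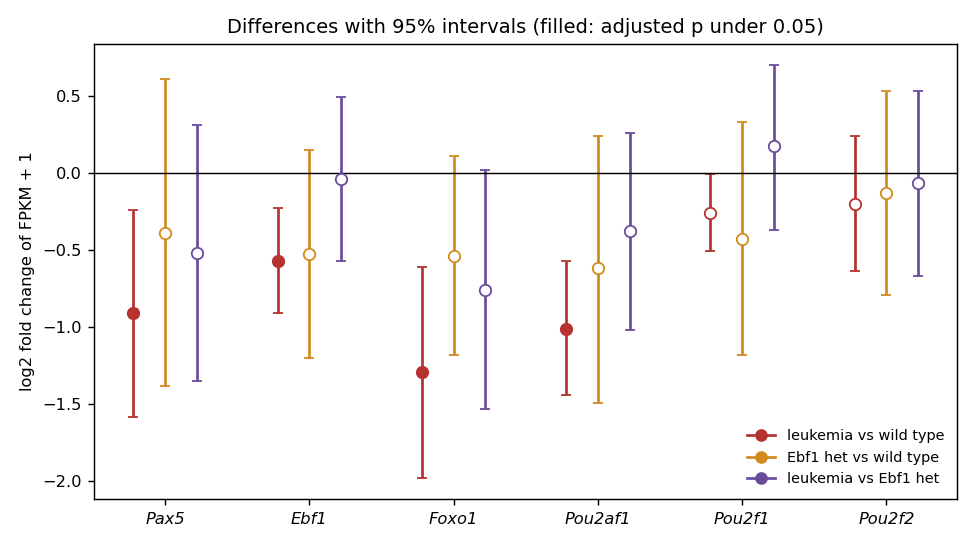
Difference in mean log2(FPKM + 1) of each of the 6 genes for the 3 comparisons (vertical axis, log2 units, first group minus second), with bars for the 95% limma interval and filled points where the adjusted p is under 0.05. In leukemia against wild type the intervals of Foxo1, Pou2af1, Pax5 and Ebf1 lie below 0 and their adjusted p pass the threshold; that of Pou2f1 also lies below 0 but its adjusted p is 0.086.

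Ratios between genes within a library are free of the library scaling, and 5 were tested in 3 comparisons, 15 tests in all. All were between members except Foxo1 to Foxo3, where Foxo3 is a relative of Foxo1 and not a member. None passed an exact permutation test after adjustment (smallest adjusted p = 0.536, and 0 at an unadjusted p under 0.05). The smallest p of an exact permutation test is 0.0179 with 5 against 3 libraries and 0.1 with 3 against 3. Ratios in Ebf1 heterozygous against wild-type cells thus could not pass even unadjusted. A single leukemia ratio at its floor would not have passed after adjustment either. The lack of passing ratios therefore does not show that the ratios were equal. Pax5 relative to Ebf1, taken on the deposited gene lengths, was 2.80, 1.71 and 2.15 in wild type and 2.36, 2.74, 2.00, 1.08 and 1.09 in leukemia. Leukemias 4 and 5, the libraries with the least Pax5 (88.3 and 71.4 FPKM), lay below the other 9 in this ratio, with Ebf1 at 81.4 and 65.6 FPKM there. Pou2af1 relative to Pou2f2 was 41.0, 41.1 and 33.6 in wild type and 12.6, 19.7, 29.6, 28.2 and 25.7 in leukemia, groups that did not overlap (log2 difference -0.79, exact permutation p = 0.0536, adjusted p = 0.536). Foxo1 relative to Ebf1 was 0.648, 0.570 and 0.642 in wild type and 0.239, 0.364, 0.361, 0.330 and 0.643 in leukemia, where leukemia 5 alone stood at the wild-type value.

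**Figure D3:**
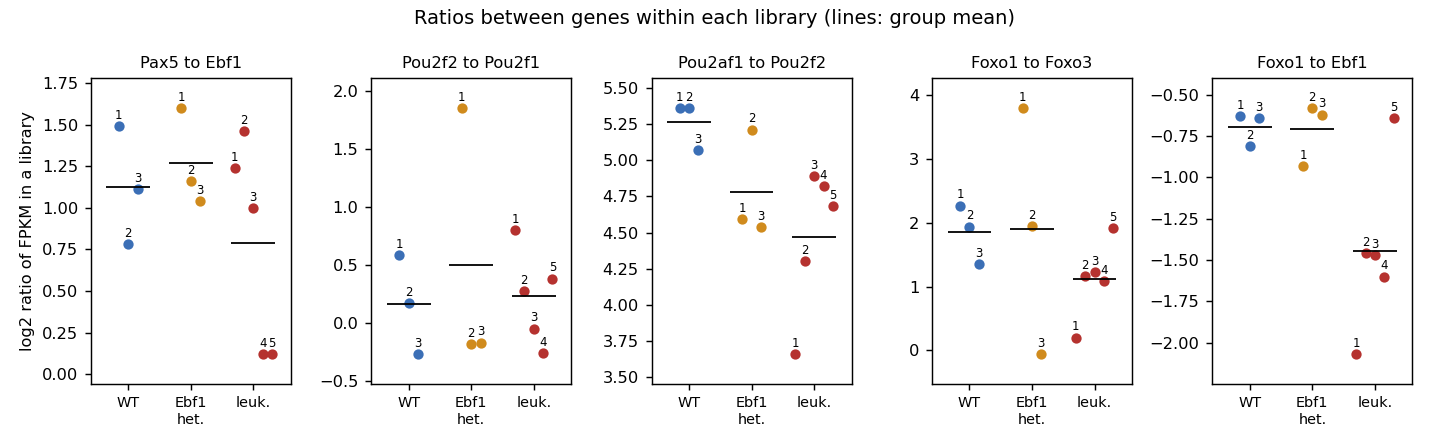
Log2 ratio of the FPKM values of 2 genes within each library (vertical axis, its own range in each panel), for the pairs named over the panels, with lines for the means of wild-type, Ebf1 heterozygous and leukemia libraries. Leukemias 4 and 5 are lowest in Pax5 to Ebf1, and in Pou2af1 to Pou2f2 all 5 leukemias lie below all 3 wild-type libraries.

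Close relatives of the 6 genes were mostly at or near 0. Of 29 relatives listed in the table, 11 were at 0 in every library and 14 more stayed under a group mean of 1 FPKM, including the other Pax genes, Ebf2 to Ebf4 and Pou2f3. The exceptions were Foxo3, Foxo4, Pou6f1 and Gm684. Foxo3 and Foxo4, forkhead factors with the same Akt control as Foxo1, also fell in leukemia. Foxo3 went from 17 ± 3.4 to 11.2 ± 1.07 FPKM (difference -0.56, limma adjusted p = 0.00901) and Foxo4 from 18 ± 2.43 to 11.8 ± 1.62 (-0.56, adjusted p = 0.00738). Foxo1 relative to Foxo3 was 4.84, 3.84 and 2.56 in wild type and 1.15, 2.24, 2.35, 2.13 and 3.78 in leukemia, overlapping groups. The Foxo1 to Foxo3 ratio of 13.9 in Ebf1 heterozygous replicate 1 came with a Foxo3 level of 3.16 FPKM there, the lowest of the 11 libraries.

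Genes known to act downstream of these factors were followed as lists taken from general knowledge of the circuit. For Pax5, 12 of 21 tested activated genes fell and 1 rose (median -1.04), and of 12 genes that Pax5 represses 6 rose and 1 fell (median 0.57). Each count of 1 depended on single libraries: that of activated genes was 0 without wild-type replicate 1 or 3 or leukemia 3 or 5, and that of repressed genes was 0 without wild-type replicate 3 and 2 without leukemia 1 or 2. Gimap5, a GTPase of lymphocytes and 1 of those repressed genes, rose from 6.49 ± 1.26 to 20.9 ± 2.24 FPKM (1.56, limma adjusted p = 5.7e-05). For Ebf1, 6 of 17 activated genes fell and 4 rose (median -0.51). Those higher were Vpreb1, Igll1, the phosphatase gene Ptpn6 (123 against 77.5 FPKM) and the lipopolysaccharide receptor gene Tlr4 (8.51 against 1.61).

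Foxo1 target genes split. Of 20 tested, 7 fell and 4 rose in leukemia (median -0.59). Ccng2, an atypical cyclin gene, fell from 93.2 ± 20.6 to 31.4 ± 3.58 FPKM (-1.52, limma adjusted p = 0.000101), and the growth arrest gene Gadd45a fell from 25.0 ± 6.05 to 4.85 ± 1.34. The recombination genes were lower in mean, Rag2 at 23.4 ± 7.79 against 37.2 ± 8.29 FPKM (adjusted p = 0.0496) and Rag1 at 125 ± 89.4 against 237 ± 60.1 (adjusted p = 0.104). Il7r, the interleukin-7 receptor gene, was 137 ± 24.5 in leukemia and 125 ± 13.2 in wild type (adjusted p = 0.573). The lower Foxo1 level thus stood beside targets that were higher, lower and not called.

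Genes listed as control of Foxo1 were mixed too: of 16 tested, 7 fell and 3 rose (median -0.33). Those that rose include Pdk1 (38.3 against 10.1 FPKM), which was counted among the Foxo1 targets as well. Pdk1 encodes a pyruvate dehydrogenase kinase, not the kinase upstream of Akt. That kinase is encoded by Pdpk1, which is also listed and fell (17 against 21.7 FPKM). Akt2, a kinase that inactivates Foxo1, fell from 48.8 ± 3.3 to 26.2 ± 1.35 FPKM (-0.87, limma adjusted p = 0.000103), and Akt1 fell from 160 ± 20.6 to 99.0 ± 5.75. Prmt1, an arginine methyltransferase that shields Foxo1 from Akt, rose from 110 ± 13.3 to 198 ± 8.05 (0.85, adjusted p = 0.000222). These are RNA levels and say nothing of phosphorylation or of where the Foxo1 protein was.

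Of 8 tested targets of the Oct factors and OCA-B, 4 fell and 0 rose (median -0.59): Spib, Ets1, Ms4a1 and Cd79b. Without wild-type replicate 1 or 2 the count that fell was 2, and 1 rose without wild-type replicate 3 or leukemia 4 and 2 without leukemia 5. Of 12 cofactors and antagonists of the 6 factors, 3 fell and 0 rose (median -0.30), or 6 lower without leukemia 4. Smarca4, the ATPase of the BAF remodelling complex, fell from 392 ± 47.3 to 123 ± 48.7 FPKM (-1.75, limma adjusted p = 0.00185). Ets1, an Ets factor that binds with Pax5, fell from 125 ± 15.8 to 77.1 ± 9.32 (-0.69, adjusted p = 0.00218), and the third was Cnot3. Of 13 factors upstream of the circuit, 4 fell and 2 rose (median -0.18). The smallest p were those of Ikzf1, which encodes Ikaros, lower at 96.4 ± 3.46 against 220 ± 8.80 FPKM (-1.18), and Tcf3, which encodes E2A, lower at 82.8 ± 20.1 against 338 ± 61.8 (-2.03). Those higher were Mef2c (43.4 against 22.7 FPKM) and Bcl11a (31.4 against 19.5). The 24.1% of genes called lower and 20.7% called higher over the whole table are the background for each of these leukemia against wild-type counts. In Ebf1 heterozygous against wild-type cells 0 members of any of these lists were called, with 0% of all genes called. Against Ebf1 heterozygous cells, where 12.3% of all genes were lower and 9.31% higher, the leukemias had 8 of 21 Pax5-activated genes lower and 0 higher (1 higher without Ebf1 heterozygous replicate 2). Of 17 Ebf1-activated genes 4 were lower and 1 higher, or 2 lower without Ebf1 heterozygous replicate 2 and 0 to 3 higher with a library left out. Of 20 Foxo1 targets 3 were lower and 4 higher, or 2 higher without Ebf1 heterozygous replicate 3 or leukemia 3, and of 8 Oct and OCA-B targets 1 was lower and 0 higher, or 2 lower without leukemia 5.

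**Figure D4:**
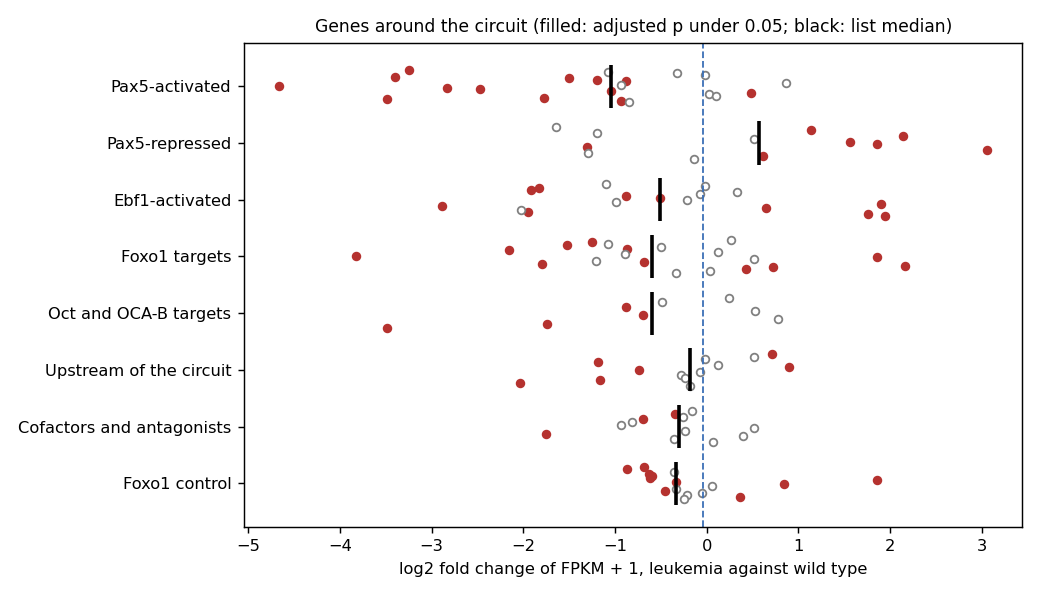
Difference in mean log2(FPKM + 1) between leukemia and wild type (log2 units) of each tested gene in the lists named on the axis; each point is 1 gene, filled where the adjusted p is under 0.05, the black bar is the list median, and the dashed line is the median of all genes, -0.04. The Pax5-activated genes spread mostly below 0, with 12 of 21 called lower, while Foxo1 targets lie on both sides, with 7 lower and 4 higher.

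Which genes followed each member over the 11 libraries was described by Pearson correlation of log2(FPKM + 1) among 8199 genes averaging at least 5 FPKM. Left out of these were the members, immunoglobulin and T cell receptor segments, and symbols of the Gm, Rik, -ps, Mir and Snor kinds. The points share libraries, groups and cell makeup, so these values carry no p. Pax5 was followed most closely by Tnfrsf13c, the BAFF receptor gene (0.939), Cxcr4, a chemokine receptor gene of marrow retention (0.913), and Lynx1 (0.910). Ebf1 was followed by Csnk1g2 (0.937), Marcks (0.932) and Rsph9 (0.928), Foxo1 by Ckap2 (0.975), Pyhin1 (0.968) and Cstf2t (0.967), and Pou2af1 by Snn (0.967), Adrbk1 (0.965) and Snx8 (0.949). Pou2f1 was followed by the general factor gene Sp1 (0.985), Scaf4 (0.977) and the acetyltransferase gene Kat6a (0.972), whose deposited lengths were 7818, 4177 and 9126 bases. Pou2f2 had the weakest matches: Serp1 (0.861), Lrif1 (0.860) and Tpt1 (0.857). Among the members themselves Foxo1 and Pou2af1 (0.90) and Ebf1 and Pou2af1 (0.89) were most alike, and with each group's mean taken out these stood at 0.79 and 0.85. Pax5 and Foxo1 had 0.50 over all libraries and 0.03 without the group means. Pou2f1 and Pou2f2 went against each other (-0.39, and -0.56 without the group means). In Ebf1 heterozygous replicate 1, where long genes read low, Pou2f1 was lowest (4.85 FPKM) and Pou2f2 highest (17.5) of the 11 libraries. The part of that library in these correlations was not tested.

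Long genes as a whole also read slightly lower in the leukemias than in wild type. The 110 genes of 10000 bases or more, Pou2f1 among them, had medians of -0.27 to -0.16 in the 5 leukemias, a range that includes the Pou2f1 difference itself (-0.26). Wild-type replicates 1 to 3 stood at -0.09, -0.19 and 0.28 in that bin, so replicate 2 lay within the leukemia range. For the 1291 genes of at least 5000 and under 10000 bases, the bin of Ebf1 (5325 bases) and Foxo1 (5552 bases), the leukemia medians were -0.22 to -0.12, smaller than the differences of either gene. Wild-type replicates 1 to 3 stood at -0.06, -0.03 and 0.08 there. The part of gene length in these differences was not tested.

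**Figure D5:**
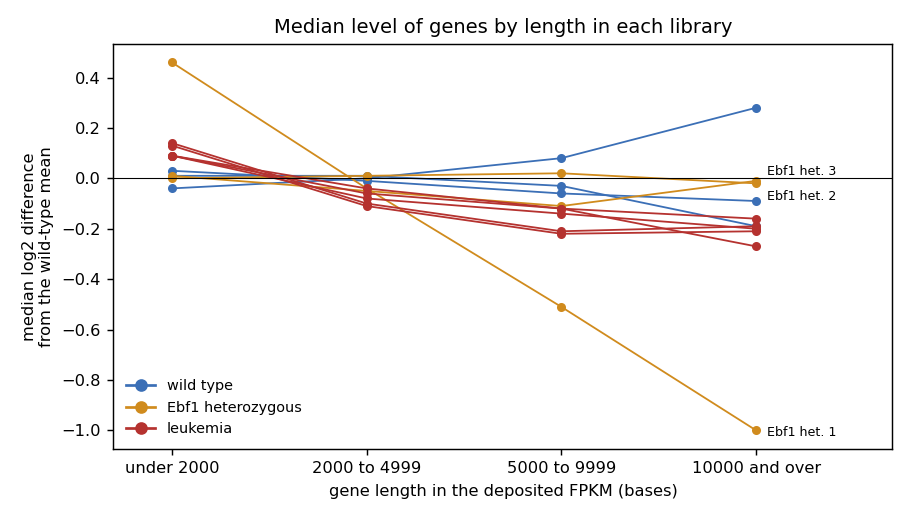
Median log2 deviation from the wild-type mean (vertical axis, log2 units) of genes binned by the length implied by the deposited values (horizontal axis, bases), 1 line per library, colored by group. Ebf1 heterozygous replicate 1 falls from 0.46 in genes under 2000 bases to -1.0 in genes of 10000 bases or more, the bin that holds Pou2f1.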

How the data were processed

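RNA levels were deposited by the authors as FPKM in 1 table of 23071 gene identifiers and 11 libraries. Per the submitters' processing notes, BWA 0.7.12 is listed for wild-type and leukemia libraries, and TopHat2 and Cufflinks for those of Ebf1 heterozygous mice, with mm10 (GRCm38). For the read counter, its strand setting and the annotation, the tool or version is not given in the sources used here. The FPKM values of all 17380 genes above 0 came out as whole reads (100%, within 0.001 read), which gave library totals and gene lengths. Groups came from the sample labels.

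Each pair of groups was fitted on its own with limma (version 3.58.1, R version 4.3.3), two-sided and with a trended eBayes prior, on log2(FPKM + 1) of genes averaging 1 FPKM or more in the libraries compared. A gene was called where its Benjamini-Hochberg adjusted p was below 0.05. Single genes and ratios were tested by exact permutation over libraries in Python 3.11.15 with SciPy 1.17.1. The limma step was tested on simulated data. The 6 genes, the lists and the rules were chosen with earlier results of these data known. Named were the 6 genes, the 2 genes of smallest p in each list for leukemia against wild type, relatives reaching 1 FPKM and the 3 most alike genes per member. A gene that this rule names is not reported here. Other list genes were named after their values were seen. Promoter windows of 250 bases came from RefSeq, and symbols matched GENCODE M21 for 22014 identifiers (95.4%).

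Deviations from group means of same-numbered wild-type and Ebf1 heterozygous libraries correlated at 0.65, 0.32 and 0.69, all above 0.1, and on that ground the numbers were read as pairs, which the labels do not state. Alternatives were pseudocount 0.1, no filter or 5 FPKM, scaling by quantiles or median ratios, a joint fit of the 3 groups, a replicate block and leaving out each library. Voom on recovered reads was added after the data were seen. Without molecular identifiers, reads may be copies of 1 molecule. Values of p measure the spread between these libraries.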

Additional observations from a re-analysis of the deposited data

Results flagged for a closer look

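Among the genes named here, 48 sets of 5 leukemia values were checked for a library far from the others by Dixon's test, and 2 had one, where chance gives about 1 in 20 (2.4 of 48). Igll1, a surrogate light chain gene, was lowest in leukemia 5 at 552 FPKM, a gap of 0.784 of the range of the group. Lrif1, a gene that followed Pou2f2, was lowest in leukemia 4 at 4.09 FPKM, a gap of 0.72 of the range. None of the 6 regulators had such a library.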

How the results depend on the processing

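The leukemia differences from wild type of Foxo1 and Pou2af1 kept their call in all 16 alternatives. That of Pax5 lost it when no genes were filtered (-0.91, limma adjusted p = 0.0552), in a joint fit of the 3 groups (-0.91, 0.0704) and under the replicate block (-0.56, 0.129), and ranged from -1.05 to -0.64 with a library left out. That of Ebf1 lost it in the joint fit (-0.57, 0.0631) and ranged from -0.69 to -0.48, and that of Pou2f1 from -0.35 to -0.14. The replicate block pairs libraries that share only a number in comparisons with leukemia (correlations -0.13 to 0.07 against wild type), where leukemias 4 and 5 have no partner. It moved called genes in leukemia against Ebf1 heterozygous cells from 2409 to 944 and Pou2f2 there to 0.04. It changed no other call of the 6 genes.

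In Ebf1 heterozygous against wild-type cells the count of called genes was 3 with pseudocount 0.1, 2 with median-ratio scaling, 23 in the joint fit and 0 to 5 with a library left out. Pax5 there ranged from -0.70 to 0.05 and Pou2f2 from -0.40 to 0.12. In leukemia against Ebf1 heterozygous cells quantile scaling put Ebf1 and Pou2f2 at 0.04. With a library left out, Ebf1 ranged from -0.36 to 0.13, Pou2af1 from -0.78 to -0.18, Pou2f1 from -0.16 to 0.45 and Pou2f2 from -0.32 to 0.21. Log2 ratios that changed sign were Foxo1 to Foxo3 in Ebf1 heterozygous against wild-type cells (-0.04 with pseudocount 1, -0.91 to 1.02 without a library) and leukemia against Ebf1 heterozygous cells (-1.75 to 0.17), Foxo1 to Ebf1 (-0.08 to 0.10) and Pax5 to Ebf1 (-0.03 to 0.33) in Ebf1 heterozygous against wild-type cells, and Pou2f2 to Pou2f1 (-0.15 to 0.28 for leukemia against wild type, -0.34 to 0.68 for Ebf1 heterozygous against wild type, -0.61 to 0.40 for leukemia against Ebf1 heterozygous). Of the counts of list genes called higher or lower, 394 moved by at most 1.5 times and 56 by more, the latter with quantile scaling or a library left out. No cause was tested.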

Other observations

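Mature B cell and plasma cell markers did not move as groups in leukemia against wild type. Of 8 mature B cell markers tested, Ms4a1, which encodes CD20, fell from 13.2 ± 7.11 to 3.55 ± 2.89 FPKM (limma adjusted p = 0.0204). Of 4 plasma cell markers, Jchain, the immunoglobulin joining chain gene, rose from 5.56 ± 2.6 to 36.0 ± 32.3 FPKM (0.00768), while Irf4 fell from 132 ± 22.5 to 18.5 ± 6.93 and Sdc1, the syndecan gene, from 38.7 ± 6.05 to 13.7 ± 6.72. Lck, a kinase gene of T cells, rose from 15.3 ± 3.27 to 71.1 ± 21.4 FPKM, the 1 of 9 T cell markers that rose, and Cd2 fell from 73.1 ± 35.6 to 16.2 ± 19.6.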
